A study of Salmo salar with 51 samples.

Results

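The probes described here were chosen in Atlantic salmon (Salmo salar) for a level around hatching, at 30, 35 and 41 days post fertilisation (dpf), above that at earlier and later ages. They are 150 of the 43689 probes of a salmonid oligonucleotide array, chosen by the log2 ratios that the authors deposited. Each probe's ratios were averaged within a time point, and the mean of 30, 35 and 41 dpf was set against the highest mean among 11 outer time points (2, 5, 10, 15 and 20 dpf before, and 59, 65, 71, 77, 83 and 89 dpf after). Of 12004 probes bright enough to be ranked (no flag and a Cy5 value of 500 or more in all 3 individuals of 30, 35 or 41 dpf), 479 had a positive gap and the 150 with the largest gap were taken. The choice therefore rests on these same arrays, and the peak itself is a description. The time points 25, 47 and 53 dpf had no part in it.

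Whole embryos, larvae or alevins of an unperturbed hatchery strain, McConnell (Mowi), were reared together in fresh water. They were sampled at 17 ages from 2 to 89 dpf, 3 individuals at each, and every individual had an array of its own. Hatching fell between the samplings at 35 and 41 dpf. On all 51 arrays the individual was labelled with Cy5 and a common reference pool, made of RNA from all time points, with Cy3, so each value is the log2 ratio of an individual to that pool. RNA came from the whole body, so more cells of a type and more RNA per cell cannot be told apart.

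Around hatching a salmon lives on its yolk while its trunk muscle grows. Fast muscle fibres shorten through myosin and actin filaments that are held in sarcomeres and switched by the troponin complex, and they draw quick energy from glycolysis. Tubulins form the microtubules on which growing nerve fibres depend. The liver of the yolk-sac stage handles yolk amino acids, and the methionine cycle supplies methyl groups and recycles homocysteine. These fields are represented by the named probes below, but only 43 of the 150 probes carry a name, against 4502 named probes on the array. The names come from lists of probes that the study itself called changed on these arrays, so which probes have a name is not independent of the data. Salmonid genes are often present as near-identical duplicates, and the share of a signal that belongs to each duplicate was not determined here.

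The median log2 ratio of the 150 probes was -1.98 at 2 dpf, -0.57 at 15 dpf, -0.01 at 20 dpf, 0.50 at 25 dpf, 0.84 at 30 dpf, 0.82 at 35 dpf, 0.62 at 41 dpf, 0.35 at 47 dpf, 0.26 at 53 dpf, -0.04 at 59 dpf and -0.31 at 89 dpf. Over the 51 arrays the median of all 20964 tested probes lay between -0.41 and -0.02. The gap between the window and the highest outer mean ran up to 1.58 on the log2 scale, with a median of 0.37. It reached 1 in 8 probes and 0.5 in 47. The last probe inside the list, C196R033, had a gap of 0.2214 and the first outside it, C144R149, one of 0.2211. A transgelin probe (C041R112), 1 rank further out, had 0.2204, so the lower end of the list has no natural edge.

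Most of the 150 probes peaked inside the window on the loess-normalised ratios used from here on, except where deposited values are named. The highest of the 17 means lay at 30 dpf in 56 probes, at 35 dpf in 54 and at 41 dpf in 26. It lay at 25 dpf in 9, at 47 dpf in 2 and at 53 dpf in 3. On the deposited values, 83 probes exceeded their highest outer mean at each of the 3 time points of the window. At the time points outside the choice, 101 of the 150 exceeded it at 25 dpf, 69 at 47 dpf and 57 at 53 dpf. Among the 12004 probes that could be ranked, 663, 678 and 664 did so at 25, 47 and 53 dpf. The 150 were chosen for a highest outer mean that was low beside the window. The counts at 25, 47 and 53 dpf are therefore not independent of the choice and are a description only. On the same deposited values, the outer time point nearest in level was 20 dpf for 37 probes and 15 dpf for 12, and it lay after 53 dpf for the other 101.

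**Figure D1:**
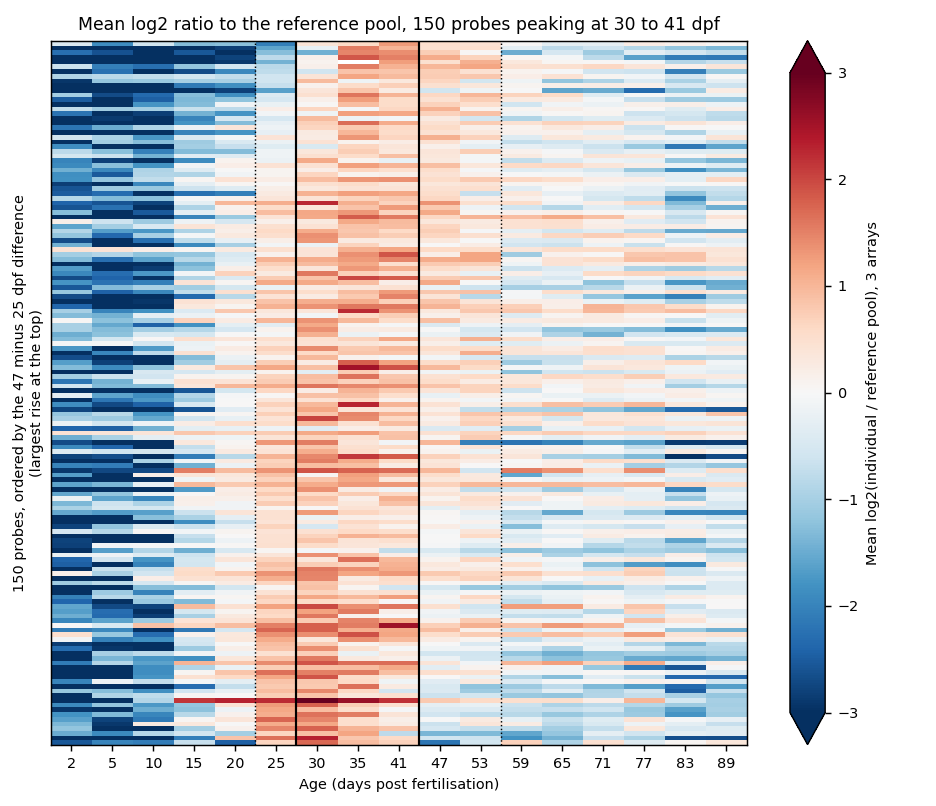
Mean log2 ratio of the individual to the reference pool (colour, mean of 3 arrays) for the 150 probes (rows) at the 17 time points (columns, evenly spaced, in days post fertilisation). Solid lines bound the window of 30, 35 and 41 dpf and dotted lines the neighbouring time points 25, 47 and 53 dpf, and rows run from the largest rise between 25 and 47 dpf at the top to the largest fall at the bottom. The upper rows are still low at 25 dpf and stay raised at 47 and 53 dpf, whereas the lower rows are already raised at 25 dpf and low again at 47 dpf.

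The median log2 ratio of the 150 probes was 1.04, 0.61 and 0.62 in the 3 individuals of 30 dpf, 0.76, 0.91 and 0.80 at 35 dpf, and 0.83, 0.64 and 0.51 at 41 dpf. The first individual of 30 dpf was the highest of its 3 for 57.3% of the 150 probes, against 36.4% of all tested probes. Its array lay on slide 8, with the first individuals of 15, 41 and 83 dpf. Those were the highest of their 3 for 60%, 49.3% and 38.7% of the 150, against 43%, 33.6% and 35.5% of all tested probes. A part of that slide in these values was not tested. The median SD of the probes was 0.531 at 30 dpf, 0.291 at 35 dpf and 0.506 at 41 dpf, against 0.421, 0.343 and 0.404 over all tested probes. The same rule was also applied, on the deposited values, to 2 replicates of every time point. The chosen 150 probes were then read in the replicate left out. Their difference from the same outer time point had a median of 0.35, 0.38 and 0.30 with replicate 1, 2 and 3 left out. It was above 0 in 106, 110 and 102 of the 150. That outer time point was the highest in the 2 replicates used for the choice and need not be the highest in the replicate left out. No share over all rankable probes was computed, so these counts are a description and no test of the peak. Of the probes so chosen, 78, 101 and 94 were among the 150 described here.

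The arrays differed in brightness, and the part of brightness in the results was not tested on its own. With a block for slides 1 to 6 against 7 to 14, 53 of the calls of single probes given below stayed past the threshold and 2 fell short of it. With each slide as a fixed block 22 stayed past it and 33 fell short. With slide as a random block 54 stayed past it and 1 fell short. Median Cy5 signals per array ran between 124 and 601 over the 51 arrays and between 199 and 446 over the 9 arrays of the window. The arrays of slides 1 to 6 had medians between 304 and 601 and those of slides 7 to 14 between 124 and 324. All 3 arrays of 41 dpf lay on slides 7 to 14, as did 2 of 3 at 25, 30, 35 and 53 dpf and 1 of 3 at 47 dpf. The mean Cy5 signal of the 150 probes over the window ran between 494 and 45300, with a median of 1860. On all 9 arrays of the window 89 of them were unflagged and at or above 500, and 12 were so on all 51 arrays. On some array, 7 of them had a Cy5 signal of at least 60000, close to saturation.

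Muscle structure led the list. The highest-ranked probe measured pdlim3 (C036R120), a PDZ and LIM domain protein of the muscle Z-line, with log2 ratios of 1.72, 1.45 and 1.78 at 35 dpf. They were 0.20, 1.28 and 0.90 at 25 dpf, 1.45, 0.20 and 0.67 at 30 dpf, 0.00, 0.21 and 0.59 at 41 dpf and -0.62, -0.26 and -0.47 at 47 dpf. The 3 individuals of 35 dpf were the highest, although 1 of 30 dpf was level with the lowest of them. TNNI2 (C230R110), the fast-muscle troponin I that holds contraction off until calcium arrives, had 3.06, 0.71 and 0.54 at 30 dpf, 2.19, 1.75 and 2.41 at 35 dpf and 2.05, 2.24 and 1.22 at 41 dpf. One individual of 30 dpf stood far above the other two. At 47 dpf TNNI2 had 0.62, 1.47 and 0.02, overlapping the 1.10, 0.53 and 1.45 of 25 dpf.

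Transgelin (TAGLN, C252R014), an actin-binding protein of smooth muscle, peaked early in the window, with 1.50, 1.54 and 1.58 at 30 dpf, 1.48, 1.19 and 0.68 at 35 dpf and 0.85, 0.72 and 0.18 at 41 dpf. The individuals of 41 dpf all lay below those of 30 dpf, but the difference did not pass the test (log2 change -0.96, SE 0.34, adjusted p = 0.153 by limma). For mustn1 (C151R067), a small nuclear protein of the developing muscle and skeleton, the ratios were 0.69, 1.04 and 0.78 at 30 dpf, 1.34, 0.73 and 1.39 at 35 dpf and 0.10, 0.83 and 0.10 at 41 dpf. Its time points overlapped within the window.

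**Figure D2:**
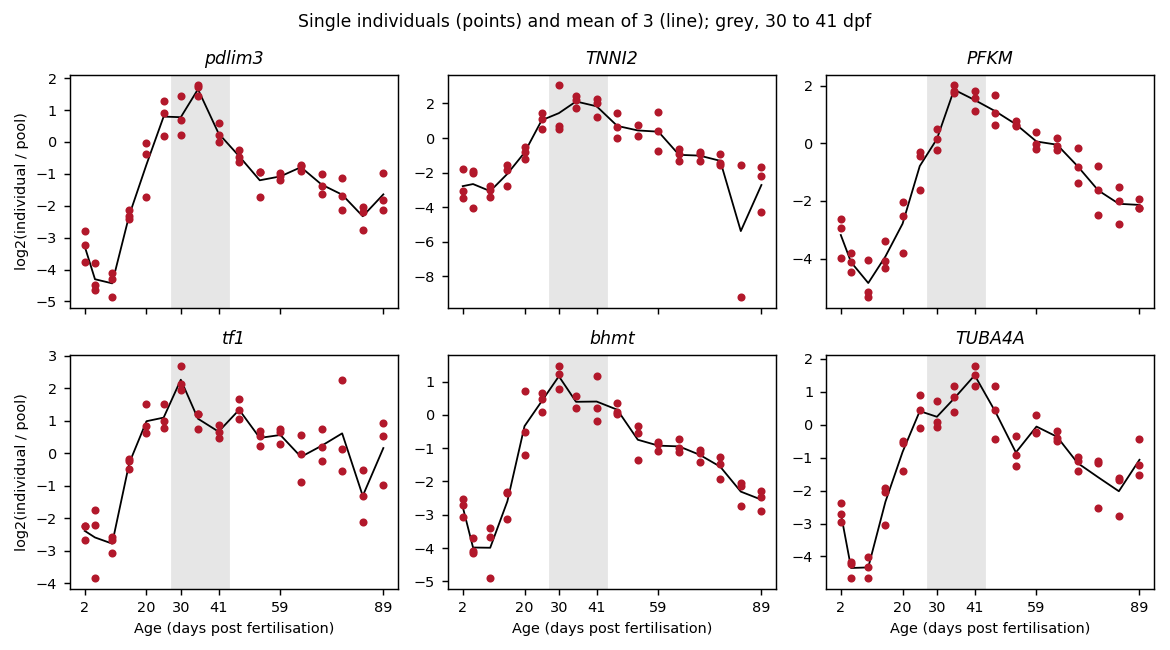
Log2 ratio of each individual to the reference pool (points, 3 per time point) and their mean (line) against age in days post fertilisation for 6 named probes, with the window of 30 to 41 dpf in grey. Each panel has its own vertical axis, and 1 very low point of TNNI2 at 83 dpf comes from a Cy5 signal near 0. All 6 are far below 0 at 10 dpf. By their means, tf1 and bhmt are highest at 30 dpf, pdlim3, TNNI2 and PFKM at 35 dpf and TUBA4A at 41 dpf.

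A list of contractile and sarcomere genes held 100 named and tested probes, of which the 96 apart from these 4 were compared with the flanks of the window. These 96 are what the choice of the 150 left over. Their names come from probes that the study called changed on these arrays. The counts below are therefore not free of either choice. Between the mean of 30 to 41 dpf and 20 dpf, 62 of the 96 rose and 1 fell (adjusted p under 0.05 by limma and a fold change of at least 2), with a median log2 change of 1.49, where 9.71% of all tested probes were called (7.62% higher and 2.08% lower) and their median was -0.02. Between the mean of 30 to 41 dpf and 59 dpf, none was higher in the window and 36 were lower, with a median of -0.98, where 6.53% of all tested probes were called (1.94% higher and 4.59% lower) and their median was 0.05. With median centring in place of loess, 48 rose and 2 fell against 20 dpf, and 56 were lower than at 59 dpf. The fast skeletal myosin heavy chain probe C248R151, for example, was 3.76 higher in the window than at 20 dpf (adjusted p = 1.79e-10 by limma) on the log2 scale. Its difference from 59 dpf was -1.04, short of the threshold (adjusted p = 0.0535 by limma). Probes well above every outer time point had been taken into the 150, so the split between both sets at 59 dpf is fixed by the choice.

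The named members included 3 glycolytic enzymes, of which 1 passed between 30 and 35 dpf. The muscle-type 6-phosphofructokinase PFKM (C029R016), which commits sugar to glycolysis, had 1.75, 1.81 and 2.02 at 35 dpf, against 0.51, -0.22 and 0.16 at 30 dpf. It was 1.13, 1.56 and 1.82 at 41 dpf. The individuals of 35 dpf did not overlap those of 30 dpf, and the change was 1.71 on the log2 scale (SE 0.43, adjusted p = 0.0371 by limma). That call held in 10 alternative settings and was lost in 12, with an adjusted p of up to 0.475. PFKM was also higher at 47 dpf, with 1.67, 1.04 and 0.63, than at 25 dpf, with -1.63, -0.42 and -0.31 (log2 change 1.90, SE 0.43, adjusted p = 0.0022 by limma). PGAM2 (C023R160), the muscle phosphoglycerate mutase that moves a phosphate group in the lower part of the pathway, had 1.29, 0.83 and 1.63 at 35 dpf, against 0.48, 0.17 and -0.22 at 30 dpf. The muscle pyruvate kinase pkm (C159R152), which makes ATP in the last step, had 1.64, 1.19 and 1.74 at 35 dpf, against 0.29, 0.07 and 0.11 at 30 dpf. Neither PGAM2 nor pkm overlapped between 35 and 30 dpf, and neither difference passed the adjusted test. At 41 dpf PGAM2 had 0.11, 0.51 and 1.01, overlapping 30 dpf, and pkm had 0.48, 1.32 and 1.36.

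At 53 dpf pkm had 0.29, 0.83 and 2.44, against -2.02, -0.36 and -0.02 at 25 dpf (log2 change 1.99, SE 0.49, adjusted p = 0.00333 by limma). PGAM2 had 0.88, 0.32 and 1.01 at 53 dpf, against -0.74, -0.30 and -0.49 at 25 dpf (log2 change 1.25, SE 0.34, adjusted p = 0.00836 by limma). PFKM had 0.59, 0.63 and 0.76 at 53 dpf, against its 3 values below 0 at 25 dpf (log2 change 1.45, SE 0.43, adjusted p = 0.0149 by limma). In none of the 3 did the individuals of 53 and 25 dpf overlap, which is a description of probes that had passed the test. Of the other 35 probes of the list of glycolysis and creatine energy genes, 22 rose and none fell between 25 and 53 dpf. Of these 35, 19 rose and none fell between 20 dpf and the window, and 7 were lower in the window than at 59 dpf (11 with median centring) and none higher. A second PFKM probe (C113R107) rose up to the window (log2 change 3.95 against 20 dpf, adjusted p = 2.03e-12 by limma) but was highest at 59 dpf (window minus 59 dpf -2.17 on the log2 scale, adjusted p = 1.97e-06 by limma).

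**Figure D3:**
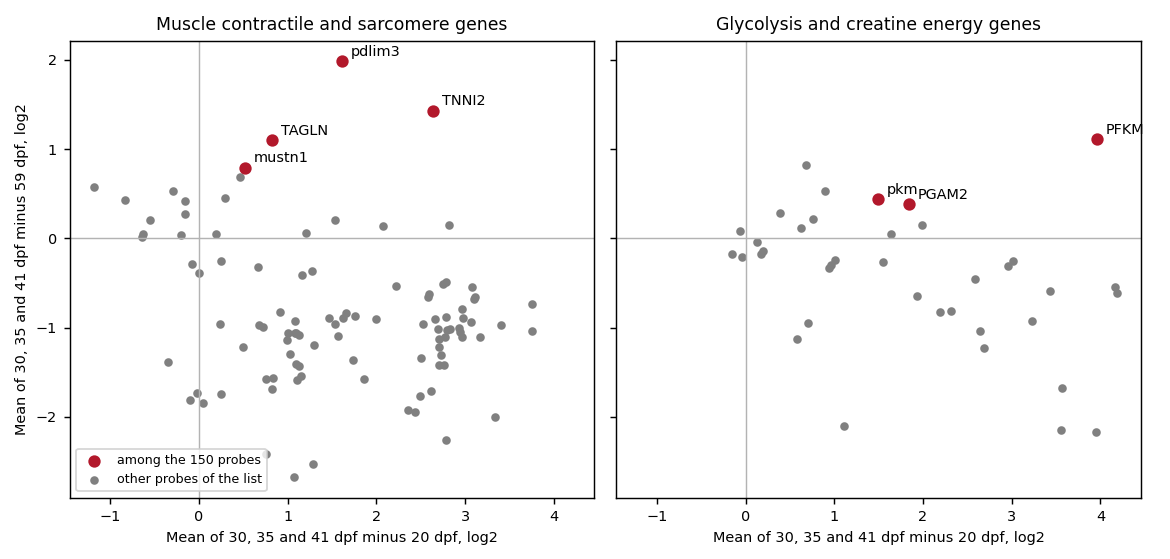
Difference of the mean of 30, 35 and 41 dpf from 59 dpf (vertical axis, log2) against its difference from 20 dpf (horizontal axis, log2) for the named probes of 2 gene lists. Red points are among the 150 probes and lie above 0 on both axes by the way they were chosen, and most grey points, the other probes of each list, lie right of 0 and below it, at higher levels at 59 dpf than in the window.

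The named members included 5 enzymes of the methionine cycle and of amino acid breakdown, none of which passed in a comparison inside the window. Betaine-homocysteine methyltransferase (bhmt, C043R104), which returns homocysteine to methionine, had 0.78, 1.48 and 1.22 at 30 dpf, 0.20 and 0.58 at 35 dpf with 1 spot flagged, and 0.21, -0.17 and 1.16 at 41 dpf. At 53 dpf it had -1.37, -0.34 and -0.54, against 0.09, 0.49 and 0.65 at 25 dpf, with no overlap (log2 change -1.16, SE 0.37, adjusted p = 0.0258 by limma). Adenosylhomocysteinase (ahcy-B, C210R084), which splits the by-product of methylation into homocysteine and adenosine, had 1.19, 0.36 and 0.59 at 30 dpf, -0.67, 0.31 and -0.21 at 35 dpf and 0.71, 0.50 and -0.25 at 41 dpf, and the individuals of 41 dpf overlapped those of 30 dpf. It had 0.00, -0.79 and -1.03 at 53 dpf, against 0.20, 0.25 and 0.90 at 25 dpf (log2 change -1.06, SE 0.35, adjusted p = 0.0312 by limma).

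Aldh6a1 (C077R134), a mitochondrial dehydrogenase of valine breakdown, had 0.40, 1.46 and 0.79 at 30 dpf, 0.21, 0.23 and -0.18 at 35 dpf and -1.23, -0.87 and 0.40 at 41 dpf. At 53 dpf it had -1.26, -1.69 and -0.47, against -0.33, 0.12 and 0.46 at 25 dpf (log2 change -1.23, SE 0.43, adjusted p = 0.0463 by limma). For hpd (C159R095), the dioxygenase of tyrosine breakdown, the ratios were 0.12, 1.54 and 0.84 at 30 dpf, 0.70, 0.56 and 0.16 at 35 dpf and -0.21, 0.62 and 1.28 at 41 dpf, and no comparison passed. Adenosine kinase (ADK, C072R094), which clears the adenosine that the cycle releases, had 0.76, 1.32 and 1.59 at 35 dpf, against 0.38, -0.38 and -0.41 at 30 dpf, which did not pass (log2 change 1.36, SE 0.39, adjusted p = 0.0765 by limma), and stayed at 0.33, 1.36 and 0.97 at 53 dpf. The list of genes of these pathways was drawn up after these 5 members had been seen. None of its other 14 probes passed against 20 or against 59 dpf, and their median log2 change was 0.12 against 20 dpf and 0.16 against 59 dpf.

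Serotransferrin-1 (tf1, C137R002), the iron carrier that the liver secretes, had its highest mean at 30 dpf. It had 2.13, 2.69 and 1.96 there, against 0.98, 0.78 and 1.53 at 25 dpf, 1.21, 1.22 and 0.76 at 35 dpf and 0.86, 0.48 and 0.65 at 41 dpf. At 77 dpf tf1 had 2.24, -0.54 and 0.13, so 1 late individual reached the range of 30 dpf. At 47 dpf tf1 had 1.65, 1.32 and 1.04, all above the individuals of 41 dpf. Those of 41 dpf all lay below those of 30 dpf, and the change of -1.60 (SE 0.49) did not pass (adjusted p = 0.0704 by limma). Of the 29 other probes of the list of liver secreted proteins, 9 were higher and 1 was lower in the window than at 20 dpf, and 2 were lower than at 59 dpf. With median centring 5 were higher and 1 lower than at 20 dpf, and 9 were lower than at 59 dpf.

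Tubulin probes made up 4 of the 43 named members. TUBA4A (C137R155) was highest at 41 dpf with 1.19, 1.52 and 1.79, against 0.83, 0.39 and 1.17 at 35 dpf and -0.07, 0.07 and 0.71 at 30 dpf. The individuals of 41 dpf did not overlap those of 30 dpf, and the change of 1.26 (SE 0.39) did not pass (adjusted p = 0.0727 by limma). At 53 dpf TUBA4A had -1.25, -0.34 and -0.93, against -0.11, 0.90 and 0.45 at 25 dpf (log2 change -1.26, SE 0.39, adjusted p = 0.0204 by limma). The other 3, all described as alpha tubulins, shared an uneven 30 dpf. There C240R058 had 1.75, 0.04 and 0.22, C247R168 had 1.85, 0.47 and 0.50, and C225R012 had 1.73, -0.84 and -0.26. In each the first individual of 30 dpf stood apart, as it did for TNNI2. Of the 14 other tubulin probes, in a list drawn up after the members had been seen, 1 was higher and 3 were lower in the window than at 20 dpf, and 2 were higher and none lower than at 59 dpf.

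The list of neuron and synapse genes gave 3 members, and the cells in which they were expressed were not determined. Stathmin (Stmn1, C257R028), which takes microtubules apart in growing nerve fibres, had 1.63, 1.02 and 1.49 at 35 dpf. It was uneven at 30 dpf, with 1.05, -0.12 and 0.11, and at 41 dpf, with 1.26, 1.58 and 0.07. Already at 25 dpf it had 0.81, 0.92 and 1.61. A second stathmin probe outside the list (C169R101) also had its highest mean at 35 dpf. That second probe was 1.30 higher in the window than at 59 dpf on the log2 scale (adjusted p = 0.00117 by limma), and its difference of 0.58 from 20 dpf did not pass (adjusted p = 0.173). Elavl2 (C212R024), an RNA-binding protein of neurons, had 1.91, 2.19 and 1.67 at 35 dpf and already 1.91, 1.21 and 1.00 at 25 dpf. Slc6a13 (C230R142), a transporter that takes up the transmitter GABA, had 2.37, 1.11 and 0.90 at 30 dpf. It was lower at 47 dpf, with 0.47, -0.10 and -0.37, than at 25 dpf, with 2.20, 1.22 and 1.81 (log2 change -1.74, SE 0.50, adjusted p = 0.017 by limma). Of the 20 other probes of the neuron and synapse list, 7 were higher and none lower in the window than at 20 dpf, and 1 was higher and none lower than at 59 dpf.

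ERMAP (C212R099), a membrane protein of red cell precursors, was the named member with the largest rise across the window. It had -0.45, 0.86 and 1.14 at 47 dpf, against -2.69, -2.01 and -1.48 at 25 dpf, with no overlap (log2 change 2.58, SE 0.45, adjusted p = 9.24e-05 by limma). At 53 dpf, with 0.88, 0.59 and -0.07, the change was 2.53 (SE 0.45, adjusted p = 8.14e-05 by limma). Its Cy5 signal was under 500 on all 3 arrays of 25 dpf, so only a bound holds there. Against the lowest normalised signal of a probe above 500 on the same arrays, ERMAP at 47 dpf was at least 1.53-fold higher, and for 53 dpf the bound was at least 1.73-fold. Of the 20 other probes of the list of hemoglobin, heme synthesis and red cell genes, 9 fell and 2 rose between 25 and 47 dpf, and 12 fell and none rose between 20 dpf and the window.

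Among the other named members, hsp90a.1 (C229R038), a chaperone needed for the assembly of muscle myosin in zebrafish, had 1.75, 0.18 and 0.75 at 30 dpf, 0.83, 1.17 and 0.78 at 35 dpf and 1.67, 1.12 and 0.64 at 41 dpf. Intermediate filament protein ON3 (C235R111), a keratin-like filament known from goldfish optic nerve, was raised evenly, with 1.69, 1.26 and 1.06 at 30 dpf, 1.43, 1.63 and 1.71 at 35 dpf and 1.79, 1.64 and 1.31 at 41 dpf. The acyl-CoA-binding protein DBI (C224R108), a carrier of activated fatty acids, had 1.50 and 1.32 at 30 dpf with the other spot flagged, 0.69, 1.06 and 0.63 at 35 dpf and 1.54, 1.07 and 0.28 at 41 dpf. Repetin (RPTN, C236R084), a protein of the outer skin layer in mammals, had the highest window mean of the named members, with ratios between 1.73 and 3.32 over the 9 arrays of the window. RPTN was at 2.74, 2.62 and 1.54 by 20 dpf and at 0.75, 0.31 and 0.43 at 59 dpf. Of the 45 other epithelial probes, 4 were higher and 9 lower in the window than at 20 dpf, and 10 were lower than at 59 dpf.

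Further probes among the 25 highest-ranked members with a name had small or uneven peaks. Histone H2A (C179R051), a protein of the nucleosome, lay between -1.09 and 0.87 over the window, and of the 20 other histone probes 4 were lower there than at 20 dpf and none was higher. The probe described as T-cell acute lymphocytic leukemia 2 (C255R095), a transcription factor name, ran between -0.94 and 2.75, and protocadherin-18 (PCDH18, C177R125), a cell adhesion protein, between -0.05 and 0.88. The ribosomal protein rps23 (C067R165), at rank 123, is named for its gene list. It had 0.56, 0.38 and 0.14 at 30 dpf, against -2.05, -1.43 and -1.44 at 25 dpf and -2.60, -1.92 and -3.90 at 20 dpf. A second rps23 probe (C192R039) was highest at 15 dpf, and of the 47 other ribosomal protein probes, in a list drawn up after the members were seen, 1 was higher and 2 were lower in the window than at 20 dpf.

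ANAPC7 (C155R135), described as a subunit of the anaphase-promoting complex, differed widely between individuals of 1 time point, with 0.94, 2.05 and 2.94 at 30 dpf, 3.15, -0.44 and 1.42 at 35 dpf and 0.80, 1.17 and 2.83 at 41 dpf. The probe C262R039, by its description a receptor of fish immune cells, had 1.23, 1.96 and 2.46, then 3.34, 0.22 and 1.77, and then 1.06, 1.59 and 2.47 in the same individuals. At 53 dpf both were below 0 in all 3 individuals, with -0.81, -0.37 and -0.60 for ANAPC7 and -0.51, -0.50 and -0.75 for the receptor. That low was no lasting fall for ANAPC7, which had 1.53, 1.25 and 1.00 at 59 dpf. Before the window, at 25 dpf, ANAPC7 had 2.29, 0.12 and 1.19. The same individuals were high and low for both probes in the window. Of the 29 other probes of the list of DNA replication and mitosis, 1 was higher and 7 were lower in the window than at 20 dpf (none higher and 14 lower with median centring).

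Of the probes ranked 1 to 5, 3 carried no name. The probe ranked 2, C230R129, had 2.81, -0.18 and -0.09 at 30 dpf, 1.81, 2.28 and 1.92 at 35 dpf and 2.70, 1.96 and 0.80 at 41 dpf, with the first individual of 30 dpf far above its other two. The probe ranked 4, C203R009, was already raised at 25 dpf with 1.52, 1.23 and 2.50, and had 0.17, 0.52 and -0.27 at 53 dpf (log2 change -1.61, SE 0.54, adjusted p = 0.0351 by limma). The probe ranked 5, C176R151, stood out only at 30 dpf, with 1.44, 1.90 and 0.80, against values between -0.05 and 0.62 at 35 and 41 dpf.

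Inside the window few probes were called, among the 150 as among all tested probes. A probe could meet the brightness minimum at 1 time point of the window alone, so these comparisons are not free of the choice. Between 30 and 35 dpf 3 rose and none fell, 2% of the 150, where 0.927% of 20931 tested probes were called (0.65% higher and 0.277% lower). These were PFKM and 2 probes without a name. C186R086 had 1.40, 1.52 and 1.71 at 35 dpf, against 0.41, -0.45 and -0.64 at 30 dpf (log2 change 1.77, SE 0.31, adjusted p = 0.00141 by limma). C005R134 had 1.39, 1.31 and 1.67 at 35 dpf, against 0.26, -3.04 and -1.57 at 30 dpf (log2 change 2.90, SE 0.65, adjusted p = 0.0145 by limma). With median centring 1 rose and 1 fell. The count was 12 without the first individual of 30 dpf and 1 without either other individual of 30 dpf or when the first or the third of 35 dpf was left out. No array of 35 dpf shared a slide with one of 30 dpf.

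Between 35 and 41 dpf, the interval that holds hatching, none of the 150 passed the adjusted test, where 0.11% of 20935 tested probes did, all of them higher. At an unadjusted p under 0.05 by limma, 9 of the 149 measured were lower and none higher. Of all tested probes, 6.26% reached that p in either direction. The median log2 change of the 150 was -0.18 against 0.00 over all tested probes. The methods' t-test, at their threshold of 0.01 and a 2-fold change, called 2. The named probe with the lowest difference was pdlim3, whose 3 individuals of 41 dpf (0.00, 0.21 and 0.59) lay below those of 35 dpf (1.72, 1.45 and 1.78), with a log2 change of -1.38 (SE 0.36, adjusted p = 0.198 by limma).

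Between 30 and 41 dpf 2 rose and 3 fell, 3.33% of the 150, where 2.42% of 20937 tested probes were called (1.6% higher and 0.822% lower). The rises were again C186R086, with 0.59, 1.26 and 1.21 at 41 dpf, and C005R134, with 1.15, 1.43 and 1.58. The falls were TH1L (C210R125) and the unnamed C141R054 and C191R057. TH1L, described as negative elongation factor D, which pauses RNA polymerase, had 0.21, 0.73 and -0.87 at 41 dpf, against 1.83, 1.65 and 1.30 at 30 dpf (log2 change -1.57, SE 0.40, adjusted p = 0.0217 by limma). One slide held an individual of each time point, and within it TH1L differed by -1.62, C141R054 by -1.01 and C191R057 by -1.63, whereas C186R086 differed by 0.18 and C005R134 by 0.89. The count was 12 without the first individual of 30 dpf, 0 without the second, 2 without the third, and 2, 2 and 3 without the first, the second and the third of 41 dpf. With slide as a fixed block 1 rose and 1 fell, the fall being TH1L.

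Between 25 and 47 dpf 9 rose and 11 fell, 13.3% of the 150, where 9.72% of 20895 tested probes were called. Over all tested probes 6.45% rose and 3.26% fell. The median log2 change was -0.25 in the 150 and -0.06 in all tested probes. The named rises were ERMAP, PFKM, pkm and fgf1 (C098R103), a growth factor described as heparin-binding, which had 0.10, 1.46 and 0.62 at 47 dpf, against -2.32, 0.34 and -0.34 at 25 dpf. The fgf1 individuals overlapped (log2 change 1.50, SE 0.48, adjusted p = 0.0356 by limma). The named falls included fam139a, Slc6a13 and pdlim3. For fam139a (C220R135), a protein of undescribed role here, the ratios were -0.70, -0.56 and -0.66 at 47 dpf, against 1.29, 0.62 and 1.41 at 25 dpf (log2 change -1.74, SE 0.33, adjusted p = 0.000231 by limma).

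The largest unnamed falls were those of C242R005 and C207R010. C242R005 had -2.85, -0.89 and -2.83 at 47 dpf, against 2.28, 1.31 and -1.69 at 25 dpf, and its individuals overlapped (log2 change -2.82, SE 0.95, adjusted p = 0.0472 by limma). Its Cy5 signal was under 500 on all 3 arrays of 47 dpf, which leaves a bound of at least 1.5-fold lower. C207R010 had -1.74, 0.03 and -0.11 at 47 dpf, against 1.69, 0.77 and 2.51 at 25 dpf, with no overlap (log2 change -2.27, SE 0.75, adjusted p = 0.0443 by limma).

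The count of 20 depended on slides and on single individuals. With slide as a fixed block 5 rose and 1 fell, and ERMAP, PFKM and fam139a were the named ones that still passed. It was 12 without the first individual of 47 dpf or the first of 25 dpf, and 13 without the third of 25 dpf. The 2 time points shared no slide, so no value within a slide could be had.

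Between 25 and 53 dpf 9 rose and 17 fell, 17.3% of the 150, where 13.3% of 20891 tested probes were called. Over all tested probes 8.71% rose and 4.61% fell, and the median log2 change was -0.33 in the 150 against -0.09. The rises included ERMAP, pkm, PFKM and PGAM2, and the falls pdlim3, Slc6a13, TUBA4A, Aldh6a1, bhmt and ahcy-B. For pdlim3, which had -1.71, -0.94 and -0.96 at 53 dpf, against its 3 values above 0 at 25 dpf, the change was -1.996 (SE 0.36, adjusted p = 8.34e-05 by limma). The largest fall was that of the unnamed C173R170, with -2.37, -1.61 and -2.16 at 53 dpf, against 0.75, 1.27 and 1.85 at 25 dpf (log2 change -3.33, SE 0.52, adjusted p = 8.66e-06 by limma). Among the unnamed rises, C188R025 changed by 2.50 (SE 0.43, adjusted p = 8.11e-05 by limma), on the 2 unflagged arrays of 53 dpf, and its spots were flagged on all 3 arrays of 35 dpf. The count was 17 with slide as a fixed block, with 8 rises and 9 falls, 14 without the third individual of 53 dpf and 17 without the third of 25 dpf. This comparison shares the arrays of 25 dpf with the one before, and no slide held both time points.

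**Figure D4:**
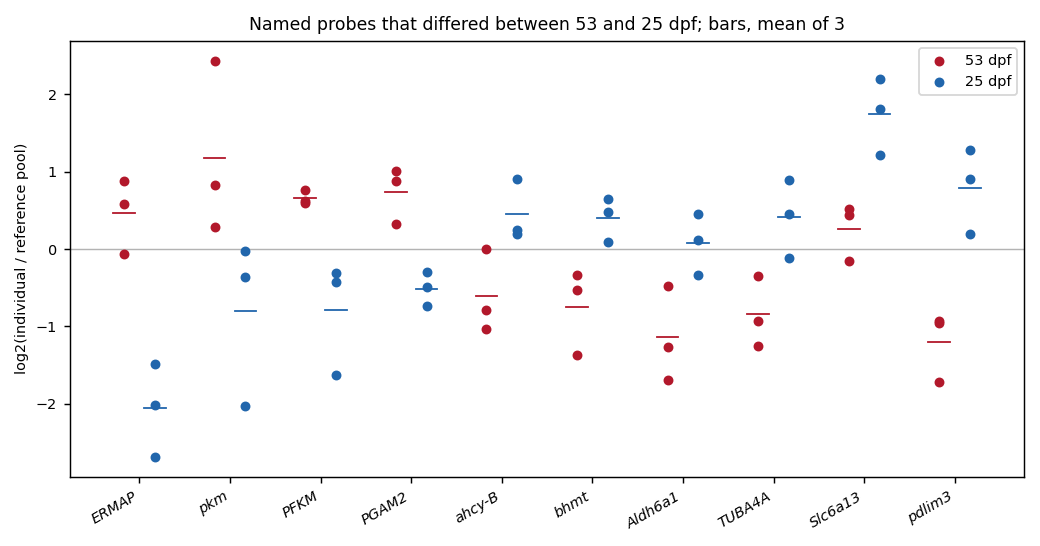
Log2 ratio of each individual to the reference pool (points) and the mean of 3 (bars) at 53 dpf (red, left) and 25 dpf (blue, right) for 10 named probes of the 150 that passed the test between these time points. The 4 on the left rose and the 6 on the right fell, and in none of the 10 do the individuals of the 2 time points overlap. The 10 were picked for passing the test, so the lack of overlap is a description and no further support.

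Between 47 and 53 dpf only C173R170 changed among the 150, where 0.0191% of 20890 tested probes were called (0.0144% higher and 0.00479% lower). It had 1.60, 0.06 and 1.31 at 47 dpf and fell to the values above at 53 dpf (log2 change -3.03, SE 0.52, adjusted p = 0.0102 by limma). On the 1 slide that held both time points the difference was -2.22. The call was lost without the first or the third individual of either time point.

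The early or late bias inside the window went with that outside it. Across the 149 probes measured at all 4 time points, the change from 30 to 35 dpf correlated with the change from 25 to 47 dpf at Pearson's r = 0.47, and 98 of the 149 (65.8%) had the same sign in both. No array enters both changes. Over 20877 tested probes the correlation was 0.42 and 62.0% had the same sign, so a link of this size was general on these arrays. The probes are not independent of one another, and r was 0.33 with slide as a fixed block and 0.27 without the first replicates.

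**Figure D5:**
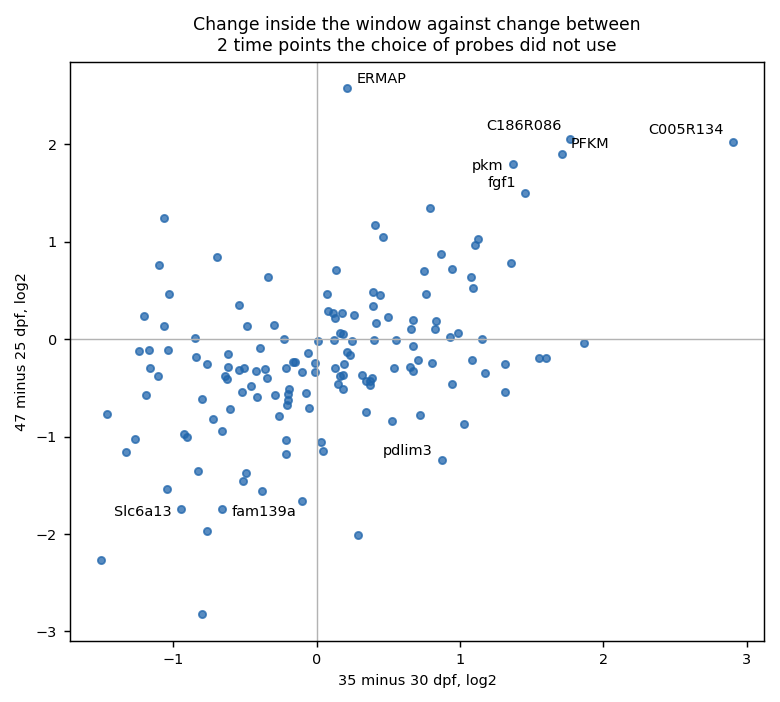
Log2 change from 25 to 47 dpf (vertical axis, 47 minus 25 dpf) against the log2 change from 30 to 35 dpf (horizontal axis, 35 minus 30 dpf) for the 149 probes measured at all 4 time points (points), with 9 probes labelled. PFKM, pkm, fgf1, C186R086 and C005R134 lie high on both axes, fam139a and Slc6a13 lie low on both, and pdlim3 lies right of 0 but low.

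For 18 of the named members, 33 further tested probes share the gene symbol or the description. Of these, 16 had their highest mean at 30, 35 or 41 dpf, 14 of them at 30 dpf. That is 48.5%, where 10.1% of all tested probes had their highest mean in the window. The 33 share a name with probes chosen for the window on these same arrays, so the excess is a description and no independent support. None of the 16 passed against 20 dpf. All 5 other probes of CNDP2, a peptidase that splits dipeptides, were highest at 30 dpf, as were both other probes of LIPA, the lysosomal lipase, and both of ARPC3, a subunit of the complex that branches actin. Over the 17 time point means, the other probes correlated with the listed one at r between 0.72 and 0.94 for CNDP2, at 0.91 and 0.92 for LIPA, and at 0.94 and 0.96 for ARPC3. Against 20 dpf none of these 9 probes passed in the window, with log2 changes between -0.14 and 1.07 for CNDP2, of -0.52 and 0.02 for LIPA and of -0.15 and -0.02 for ARPC3. Such probes can bind duplicates or the same transcript, so they are not separate genes.

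For other genes the probes disagreed. Of the 4 other TAGLN probes, 2 were highest at 30 dpf and correlated with the listed one at r = 0.96 and 0.95 over 17 time points, and the other 2 were highest at 2 dpf, at r = -0.72 and -0.27. Both other Aldh6a1 probes peaked after the window, at 53 and 59 dpf. A second pdlim3 probe (C086R093) was highest at 77 dpf and was lower in the window than at 59 dpf (log2 change -0.96, adjusted p = 0.011 by limma, short of a 2-fold change). A second hsp90a.1 probe (C152R041) was highest at 15 dpf. The other RPTN probe (C198R088) was highest at 2 dpf and ran against the listed one, at r = -0.83 over 17 time points. Both other RHOF probes, for a small GTPase that shapes actin, were highest at 83 and 89 dpf.

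Over all 20 gene lists, the 486 named probes outside the 150 included 139 that were higher and 41 that were lower in the window than at 20 dpf, and 24 that were higher and 85 that were lower than at 59 dpf. Over all tested probes, 7.62% were higher and 2.08% lower in the window than at 20 dpf, and 1.94% were higher and 4.59% lower than at 59 dpf. Names went to probes that the study called changed, so named probes are the closer background. Of 4262 named and tested probes outside the 150, 396 were higher and 169 lower than at 20 dpf. Against 59 dpf, 122 of the 4262 were higher and 248 lower. With median centring the list counts were 100 and 53 against 20 dpf. Counts against 59 dpf moved too, with 56 rather than 36 muscle probes and 9 rather than 2 liver probes lower in the window, but 0 rather than 1 homeobox probes. No member came from the lists of lens crystallins, photoreceptor genes, myelin genes, collagens and cartilage or bone matrix, vitellogenin and apolipoproteins, pancreatic enzymes and hormones, or homeobox factors. Nor did any come from the 20 probes of MHC class I and beta-2-microglobulin, which present peptides to immune cells, and of which 17 were higher in the window than at 20 dpf (5 with median centring) and 15 lower than at 59 dpf (16 with median centring). In the order given, these lists without a member held 13, 5, 8, 27, 5, 5, 34 and 20 named and tested probes. Of all 4305 named and tested probes only 43 were members, so absence from short lists is a description only. For hatching enzymes, which dissolve the egg shell, no named probe was tested.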

How the data were processed

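RNA of 51 whole individuals, 3 at each of 17 time points, was measured on 2-colour arrays with a common reference pool. The authors quantified the scans and deposited, for each array, background-corrected signal intensities of both channels with a flag per spot. They also deposited a table of log2 ratios, normalised by Lowess within arrays and centred per probe over all samples. The background method is not given in the sources used here. The deposited log2 table chose the members. It also gave the counts against the highest outer mean, the values of left-out replicates and part of the alternatives in the closing section. Everything else was computed from the intensities, raised to at least 1 and normalised by loess within each array with limma 3.58.1 in R 4.3.3, with flagged spots left out. Tested were 20964 probes, those with no flag and a Cy5 value of 500 or more in all 3 individuals of some time point.

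A single linear model over the 51 arrays, with 1 coefficient for each age, gave 6 comparisons for the members. It also gave 2 of the window with 20 and 59 dpf for probes outside the members. The ranking of members used none of the 6 differences. The brightness minimum could be met at 1 time point of the window alone, so the 3 comparisons inside the window are not free of the choice. A call is a Benjamini-Hochberg adjusted p under 0.05 over all tested probes with a fold change of at least 2. SEs and p-values are from that fit. It was also run on simulated data, with noise drawn independently for each probe and array, so that run could not cover effects of slides. Whether individuals overlap is described for single members, and the share without overlap over all tested probes was not computed. Arrays have no sequencing depth, and 3 individuals per time point limit the precision.

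The members, the gene lists and the tests were chosen with earlier results of these data known, and 3 lists (tubulins, ribosomal proteins, methionine cycle and amino acid breakdown) after the members had been seen. Named are the 25 highest-ranked members with a description, all members in a gene list, the 3 largest rises and falls among named members in each comparison, the probes at the edge of the list, and unnamed probes of rank 1 to 5 or with the largest changes. One probe that the rule names is not reported here. CNDP2, LIPA, ARPC3 and RHOF were named after their values were seen. Probe names come from the study's additional tables, 1 of which was at hand only in part. The replicate numbers name different individuals. Over 2055 bright probes, same-numbered arrays of 41 and 35 dpf deviated together (r = 0.102, 0.307 and 0.287), and blocking changed no count there. In no other comparison did all 3 pairs exceed 0.1, but some single pairs deviated together more strongly. The values were 0.569, 0.075 and 0.539 for 41 and 30 dpf, and 0.564, 0.399 and -0.116 for 53 and 25 dpf. No sequence is printed, since none was at hand for the probes. The closing section gives the alternatives.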

Additional observations from a re-analysis of the deposited data

How the results depend on the processing

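The number of the 150 probes that passed moved with several choices, and the causes were not tested. Between 30 and 35 dpf (3 as reported) it was 5 in the Cy5 channel after loess and quantile scaling, 8 in the Cy5 channel alone, 5 with slide as a random block, and 16 at an unadjusted p of at most 0.01 with limma. Between 30 and 41 dpf (5) it was 2 with median centring, 2 with no filter on dim probes, 2 with slide as a fixed block, 3 by the methods' t-test at a p of at most 0.01, and 18 at an unadjusted p of at most 0.01 with limma. Between 35 and 41 dpf (0) it was 2 by both unadjusted tests. Between 25 and 47 dpf (20) it was 13 with no filter, 6 with slide as a fixed block and 3 by the methods' t-test. Between 25 and 53 dpf (26) it was 17 with no filter, 17 with slide as a fixed block and 9 by the methods' t-test. Between 47 and 53 dpf (1) it was 4 at an unadjusted p of at most 0.01 with limma and 0 by the methods' t-test. With Benjamini-Hochberg adjustment the methods' t-test called 0 in all 6 comparisons. With only probes at or above 500 on all 51 arrays, to which 12 of the 150 belong, the count was 0 inside the window and for 47 to 53 dpf, and 1 for 47 and for 53 dpf against 25 dpf. With only the 6 arrays of a comparison in the fit, it was 0 inside the window and for 47 to 53 dpf.

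With the replicate number as a block, the count was 5 for 35 against 30 dpf, 0 for 41 against 35, 8 for 41 against 30, 22 for 47 against 25, 28 for 53 against 25 and 1 for 53 against 47 dpf. With replicates or single arrays left out, the count ranged between 0 and 15 for 30 to 35 dpf, 0 and 12 for 30 to 41 dpf, 8 and 16 for 25 to 47 dpf, 10 and 25 for 25 to 53 dpf, and 0 and 1 for 47 to 53 dpf, and stayed 0 for 35 to 41 dpf. Of the 150 members, 66 came back with no filter on dim probes, 74 when 25, 47 and 53 dpf also had to be exceeded, and between 78 and 101 with a replicate left out, and 25 under every one of the 10 alternatives, 11 of them named. The called list probes outside the 150 were 109 between the window and 59 dpf and between 64 and 93 with a replicate left out. The correlation of 0.47 was 0.33 with slide as a fixed block and between 0.27 and 0.50 with a replicate left out, in alternatives chosen after seeing the data. For the single probes called in a comparison, no alternative turned a direction, 889 values stayed past the threshold and 322 fell short of it. Besides PFKM between 30 and 35 dpf, the calls lost in at least as many alternatives as they held in were Aldh6a1 and Slc6a13 between 25 and 53 dpf (11 of 22 each), C191R057 between 30 and 41 dpf (19 of 22), and C005R134 (13 of 22) and C242R005 (14 of 22) between 25 and 47 dpf. Low signal limits the earliest time points most, since 120 of the 150 were under 500 on all 3 arrays of 2 dpf and 10 at 20 dpf.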
